A study of Drosophila melanogaster with 23 samples.

Results

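The comparison described here set S2R+ cells kept for 12 h at 14 °C against S2R+ cells kept for 12 h more at 25 °C, with 3 microarrays on each side out of 23 in the series. Its members were chosen by title, as the 3 cultures sampled 12 h after the downshift and the 3 control cultures sampled at the same time without one, and every probe for a fly transcript entered. S2R+ is an established line derived from Drosophila embryos, and 1 line stands for the fly in all groups. Every culture spent 36 h at 25 °C first. The 17 remaining arrays, taken at 0 h and at 4, 24 and 72 h after the downshift, shared the normalization and the estimate of the spread. The study's methods call the replicates biological. The p-values below measure the spread between these cultures.

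Flies do not regulate their body temperature, so that their cells work at the temperature of their surroundings and every enzymatic step slows as they cool. Tolerated cold leaves cells alive and dividing slowly, in contrast to the acute stress of heat, which induces the heat shock proteins. Entry into S phase depends on a set of proteins that are made in a coordinated manner: the origin recognition complex marks origins, the MCM helicase is loaded there and is activated by Cdc45 and GINS, and DNA polymerase alpha with its primase begins each new strand. Cells of the line proliferate more slowly at 14 °C than at 25 °C, so that the temperature of the last 12 h and the growth during it cannot be told apart in this comparison. Levels at 0 h, before either branch, are given for the lists and genes where they bear on a call. With 0 h in place of the warm cultures, 24 of the 28 named genes below were called (not Lk6, Ctf4, PolA2 and Tsf3).

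The 6 arrays were of similar yield, with between 15060 and 17343 of 32162 probes well above background on each. The scanner software placed 2 of the 3 cold arrays (replicates 2 and 3) outside its quality range and none of the warm ones. The cold arrays correlated with one another at r = 0.992 to 0.996 over the tested probes, and the warm arrays at 0.957 to 0.990. Replicate 2 of the warm group stood apart, at 0.978 and 0.957 with the other warm arrays, which correlated at 0.990. Replicates 1 of both groups lay on 1 slide (slide 3) and replicates 3 on another (slide 1), which allowed differences within a slide, whereas replicates 2 shared none. Scan dates were unbalanced: cold replicates 2 and 3 and warm replicate 3 were scanned on date 2, and the rest on date 1. Among the hemocyte markers that could be named, srp, ush and vkg were well above background on all 6 arrays. These are 3 of 15 hemocyte markers listed, since the rest could not be paired with a probe. Among markers of other cell types, those of muscle (twi and wupA), germline (nos) and fat body (Yp1 and Yp3) were not well above background on any of the 6 arrays, but the muscle gene Mf, the germline gene tud and the neuronal gene Syt1 were on all 6, so that the markers do not all follow the label. Of those that were tested, only ush differed between the groups by adjusted p, with a log2 change of 0.70 (adjusted p = 0.00132). Only 3805 probes carry exactly 1 gene symbol from the sources used here, so most called probes have no gene name below.

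Of 15503 tested probes, 455 passed the test of limma (adjusted p under 0.05 together with a change of at least 2-fold), or 2.93%. 326 of these were higher after 12 h at 14 °C (2.1% of the tested probes) and 129 were lower (0.832%). Most responses were moderate: the median log2 change was 1.20 among the probes called higher and -1.14 among those called lower, and only 15 probes rose and 1 fell by 4-fold or more. Without the fold limit, 3017 probes (19.5%) differed, 1732 higher and 1285 lower. The groups of 3 arrays did not overlap for 453 of the 455 called probes, against 35.7% of all tested probes. The surplus of higher over lower calls depended on the scaling of the arrays. With each array scaled to its median in place of quantile normalization, 159 probes were called higher and 329 lower, and with the values deposited by the authors 299 and 226, respectively. The median log2 change of all tested probes was 0.02 in the quantile-normalized values, but -0.14 after median scaling and 0.12 after scaling to the 75th percentile of the processed signal.

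**Figure D1:**
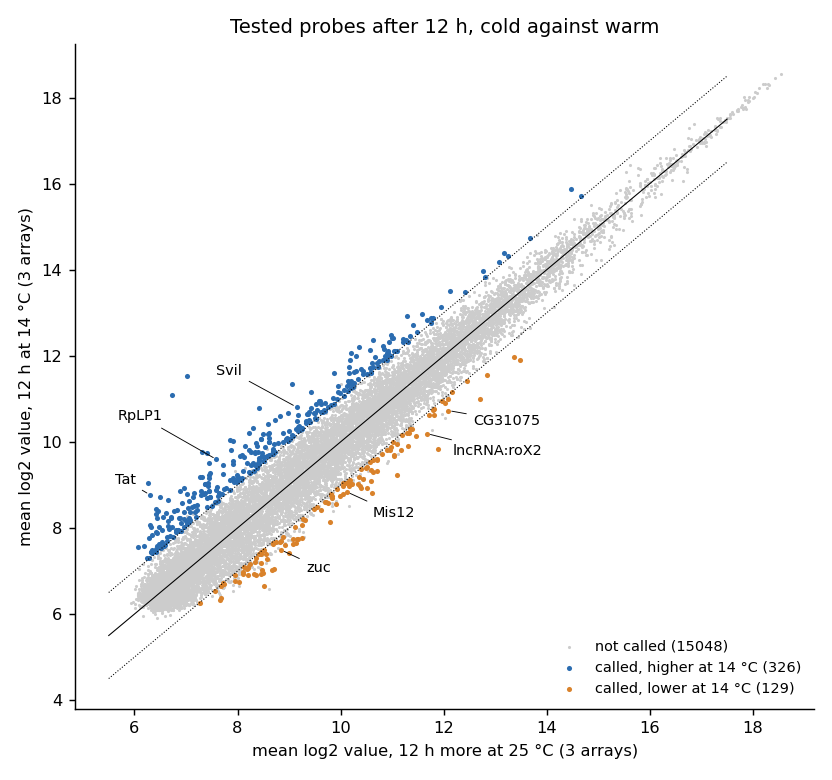
Mean log2 value of each of the 15503 tested probes in the 3 warm cultures (x axis) and the 3 cold cultures (y axis). Blue points are the 326 probes called higher and orange points the 129 called lower. The solid line marks equal levels and the dotted lines a 2-fold change, and 2 blue points near log2 7 on the x axis stand far above all others.

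The calls were repeated without the arrays in doubt. Without replicate 2 of the warm group, 352 probes were called (224 higher, 128 lower), 312 of them among the 455. With both cold arrays outside the quality range left out, which leaves 1 cold culture that is assumed to vary like the other groups, 292 probes were called (210 higher, 82 lower), 268 of them among the 455. A fit of the 4 arrays that share slides, with slide as a block, called 363 probes (237 higher, 126 lower), 309 of them among the 455. Within slide 3 and within slide 1 all 455 called probes moved in their called direction, and 229 did so by at least 2-fold on both slides. Of all tested probes, 35.2% were higher and 35.9% lower on both slides. The arrays of these slides had entered the calls, so these shares are a description.

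**Figure D2:**
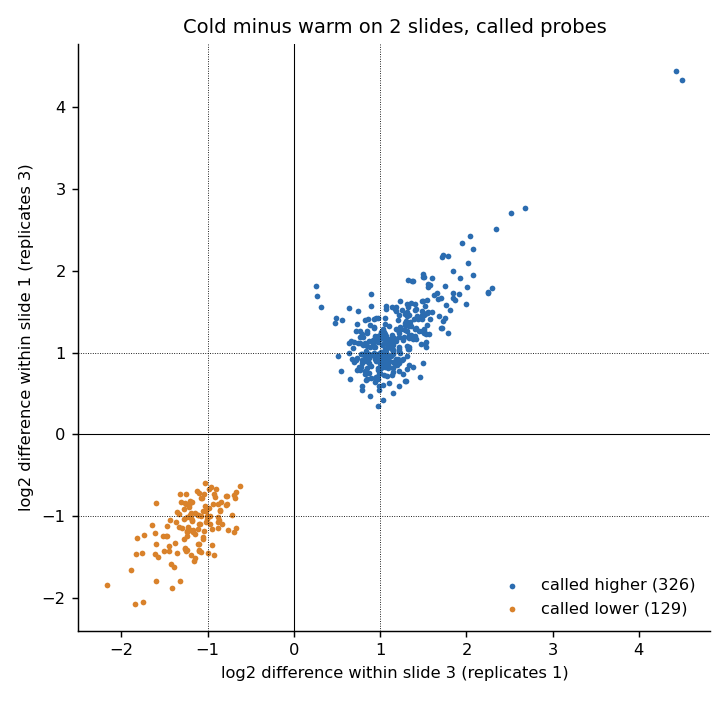
Log2 difference between the cold and the warm culture on slide 3 (x axis, replicates 1) and on slide 1 (y axis, replicates 3) for the 455 called probes. Dotted lines mark 2-fold changes, and all blue points (called higher) lie above 0 on both axes while all orange points (called lower) lie below 0 on both.

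The strongest response belonged to transcript FBtr0078160, which is matched by 2 probes and has no gene symbol in the tables used here. Its first probe gave log2 values of 7.06, 6.88 and 7.12 in the warm cultures and 11.50, 11.51 and 11.56 in the cold cultures. The second probe gave 6.65, 6.84 and 6.72 against 11.15, 11.05 and 11.05. The log2 changes were 4.50 (SE 0.21, adjusted p = 1.89e-11) and 4.35 (SE 0.12, adjusted p = 1.12e-15), whereas no other tested probe changed by more than 2.78. Transcript FBtr0085686 came next, from 6.32, 6.20 and 6.26 in the warm cultures to 9.01, 9.10 and 9.03 in the cold ones (log2 change 2.78). Its warm values lay near the background, where values are compressed. At the other end was transcript FBtr0335125, with the largest fall of all. Its 3 called probes changed by -2.07, -1.88 and -1.32, the first from 11.95, 11.92 and 11.82 to 9.78, 9.73 and 9.97. Transcript FBtr0302178 followed, from 8.56, 8.85 and 8.14 to 6.72, 6.52 and 6.68, with cold values close to the log2 6.6 limit for testing.

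Among the named genes the 14 with the largest rise and the 14 with the largest fall were followed on every array. Tat, which encodes tyrosine aminotransferase, the first enzyme of tyrosine breakdown, led the risers. It gave log2 values of 6.36, 6.24 and 6.30 in the warm cultures and 8.70, 8.79 and 8.81 in the cold cultures. The warm values lay at the level of the background and exceeded it clearly on 1 of 3 arrays, where values are compressed. The log2 change was 2.47 (SE 0.11, adjusted p = 1.21e-11). Pvf3, a ligand of the PDGF and VEGF receptor homologue Pvr, which acts in hemocyte survival and migration, rose from 7.71, 6.92 and 7.69 to 9.38, 9.84 and 9.34 (log2 change 2.08, SE 0.29, adjusted p = 3.36e-05). A second Pvf3 probe rose by 1.13, and one more, with a log2 change of 0.46, did not pass.

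Several of the other risers are linked to the cytoskeleton, to signalling or to transcription. Svil, a member of the villin family of actin-binding proteins, gave 9.25, 8.92 and 9.26 in warm cultures and 10.65, 10.92 and 10.85 in cold ones (log2 change 1.66, SE 0.15, adjusted p = 1.43e-07). mim, which encodes a membrane-bending protein at the actin cortex, rose by 1.52 with one probe, and with its other probe the change was 0.11 and did not pass. Kah, a zinc finger protein, rose by 1.99, and Hr51, a nuclear receptor, by 1.36. Hk, the beta subunit of the Shaker potassium channel, rose by 1.62. The uncharacterized genes CG33642 and CG34453 rose by 1.82 and 1.70, the latter with both of its probes. nompB, known for transport within cilia, was not well above background on any warm array and was at least 2.61-fold higher in cold cultures (adjusted p = 8.93e-06). For each of these genes all 3 arrays at 0 h lay below all 3 cold arrays.

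3 non-coding RNAs stood among the 28. asRNA:CR43465, an antisense RNA, rose by 1.54. lncRNA:Hsromega, the RNA of the heat shock omega speckles, was measured by 4 probes. The 2 probes for one of its transcripts rose by 1.76 (SE 0.46, adjusted p = 0.0105) and 1.18, whereas the 2 brighter probes for another gave 0.70 and 0.65 and did not pass. Its first probe varied already before the shift, with a mean of 8.02 ± 0.76 (SD, n = 3) at 0 h against 7.71 ± 0.23 (SD, n = 3) in the warm cultures, and with the 2 doubtful cold arrays left out its change of 1.65 had an adjusted p of 0.230. lncRNA:roX2, a component of the complex that raises transcription from the male X chromosome in flies, led the genes that fell. It gave 11.60, 11.88 and 11.54 in the warm cultures and 9.95, 10.19 and 10.43 in the cold cultures (log2 change -1.48, SE 0.24, adjusted p = 0.000168). The other roX2 probe had a log2 change of -0.36 and did not pass.

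**Figure D3:**
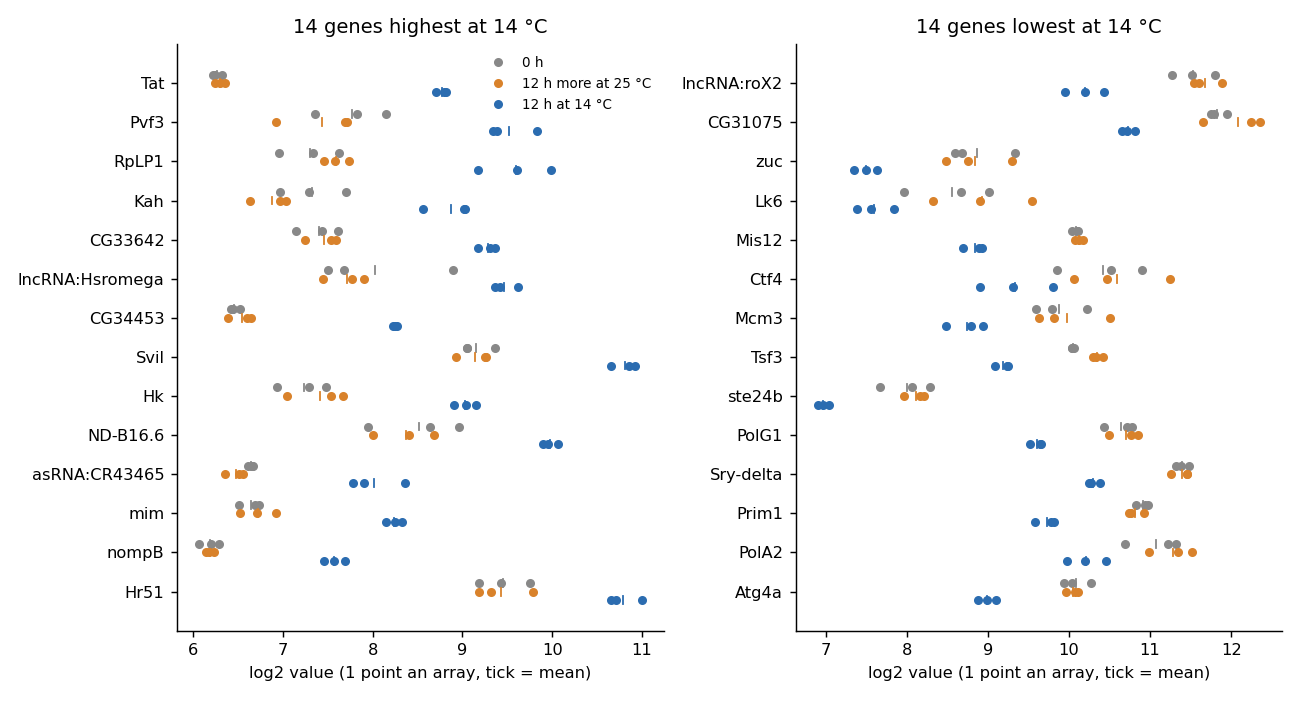
Log2 value on each array (points) and mean (ticks) of the 14 named genes with the largest rise (left) and the 14 with the largest fall (right), with 3 arrays each at 0 h (grey), after 12 h more at 25 °C (orange) and after 12 h at 14 °C (blue). Blue points never overlap orange ones, and for Lk6 and Ctf4 the orange points spread over more than 1 log2 unit.

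Mis12, a scaffold protein of the kinetochore, fell with little spread between cultures. It gave 10.12, 10.08 and 10.17 in the warm cultures and 8.93, 8.89 and 8.70 in the cold cultures (log2 change -1.28, SE 0.09, adjusted p = 1.04e-08), and its 0 h mean of 10.08 ± 0.04 (SD, n = 3) was at the warm level. CG31075, which the study lists under amino acid catabolism, gave 12.25, 12.36 and 11.65 in warm and 10.65, 10.72 and 10.82 in cold cultures (log2 change -1.36, SE 0.15, adjusted p = 2.9e-06). zuc, the nuclease of piRNA biogenesis known from the germline, fell by 1.35 on the log2 scale. Tsf3, of the transferrin family of iron-binding proteins, fell by 1.16, but its change from the 0 h mean of 10.05 ± 0.01 (SD, n = 3) was -0.86. CG31075 was at 11.83 ± 0.11 (SD, n = 3) at 0 h. The gene ste24b, of a family of prenyl protein proteases, fell by 1.14. PolG1, the catalytic subunit of the mitochondrial DNA polymerase, fell by 1.10, and Atg4a, the protease that processes the autophagy protein Atg8, by 1.07. The transcription factor Sry-delta gave 11.26, 11.46 and 11.46 against 10.24, 10.27 and 10.38, a change of -1.09 (SE 0.08). All 28 named genes kept their direction in the 26 alternatives examined, and 21 were called without the 2 doubtful cold arrays (those not called were Hsromega, Hr51, Prim1, Mcm3, Lk6, Ctf4 and PolA2).

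4 of the genes that fell lost their call without the warm replicate that stood apart, among them Mcm3, described below. Lk6, a kinase of the translation factor eIF4E, gave 8.90, 9.54 and 8.32 in the warm cultures and 7.84, 7.56 and 7.39 in the cold ones, where the middle warm value is replicate 2. Its change of -1.33 (SE 0.41, adjusted p = 0.028) became -1.02 without that array (adjusted p = 0.151), and the 4 other, brighter Lk6 probes had log2 changes between -0.34 and 0.40, none past the test. Ctf4, which links the replicative helicase to DNA polymerase alpha, changed from 10.46, 11.24 and 10.06 to 9.80, 9.31 and 8.91 (log2 change -1.25, SE 0.43, adjusted p = 0.0452), or by -0.92 without warm replicate 2 (adjusted p = 0.217). PolA2, the accessory subunit of DNA polymerase alpha, changed by -1.07 (SE 0.25, adjusted p = 0.00516), or by -0.96 without it (adjusted p = 0.0302), which misses the fold limit.

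Among the 15 process lists of the study the median lay farthest from 0 for S phase, for which 23 of 53 probes were lower (adjusted p under 0.05, against 8.29% of all tested probes) and none was higher. The median log2 change of the list was -0.53, beside 0.02 for all tested probes, and 49 of its 53 probes lay below 0. The list mean was 10.51, 10.51 and 10.46 in the warm cultures and 10.03, 9.99 and 9.93 in the cold cultures. The groups did not overlap, and the 0 h arrays, at 10.57, 10.49 and 10.48, stood with the warm ones. In RNA from whole cultures, fewer cells in S phase and less of these RNAs per cell cannot be told apart. The list median was -0.51 within slide 3 and -0.53 within slide 1, and 44 of the 53 probes were lower on both slides, against 35.9% of all tested probes. It was -0.72 after median scaling, -0.54 after scaling to the 75th percentile and -0.50 in the deposited table.

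A separate list of other replication and cell cycle genes lay on both sides of 0, with 23 of 41 probes below and 18 above. By adjusted p, 7 of the 41 were lower (17.1%, against 8.29% of all tested probes) and 5 higher (12.2%, against 11.2%). Its median log2 change was -0.02. Within the S phase list, lower probes came from most steps of replication, in a grouping by complex made after the values were seen. 7 of 9 probes for the 6 MCM helicase subunits were lower by adjusted p, with a median log2 change of -0.76, and so were 6 of 13 probes for origin recognition and loading factors (-0.57), 3 of 5 for DNA polymerase alpha-primase (-0.53), 3 of 7 for GINS and Cdc45 (-0.42) and both probes for ribonucleotide reductase, the enzyme that makes deoxyribonucleotides (-0.53). None of 6 probes for the clamp loader and the single-strand binding protein RPA passed, and all 6 lay below 0, with a median of -0.47. 5 probes of the list also met the fold limit. Mcm3 gave 9.82, 10.50 and 9.62 in warm and 8.93, 8.79 and 8.48 in cold cultures with its called probe (log2 change -1.24, SE 0.25, adjusted p = 0.00138) and a change of -0.92 with its brighter probe. Without warm replicate 2 the called probe changed by -0.98 (adjusted p = 0.013), just under the fold limit. Prim1, the catalytic primase subunit, gave 10.93, 10.76 and 10.74 against 9.82, 9.78 and 9.59 (log2 change -1.08, SE 0.15, adjusted p = 3.52e-05). Sld5 of GINS changed by -1.05, and Orc6 of the origin recognition complex by -1.04. Below the fold limit, Mcm2 was lower by 0.89 (12.86, 12.80 and 12.85 against 11.91, 11.98 and 11.95) and RnrS by 0.59. The count of 23 (43.4%) was 25 (47.2%) without warm replicate 2, against 7.2% of all tested probes there, and 8 (15.1%) without the 2 doubtful cold arrays, against 1.89%.

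The M phase list moved less, with 9 of 45 probes lower (against 8.29% of all tested probes), 1 higher and a median log2 change of -0.19. Beside Mis12, the centromeric histone gene cid was lower by 0.93 (adjusted p = 0.00019), and Nuf2 and Spc25 of the Ndc80 complex, which binds microtubules at the kinetochore, by 0.52 and 0.42. The list mean ranged from 10.47 to 10.67 in warm and from 10.28 to 10.41 in cold cultures. In the mitochondrial ribosome list 12 of 80 probes were lower and 1 was higher, with a median of -0.21. There mRpS11, a small subunit protein, was lower by 0.97 and 0.73 with its 2 probes, and the warm list means ranged from 10.90 to 11.22 and the cold ones from 10.66 to 10.84. Without warm replicate 2 these counts of lower probes were 5 of 45 and 8 of 80 (7.2% of all tested probes were lower), and without the 2 doubtful cold arrays 2 of 45 and 1 of 80 (1.89% of all), the last at or under the background. Within the 2 slides the medians ranged from -0.24 to -0.19 for M phase and from -0.22 to -0.14 for the mitochondrial ribosome. Of 134 probes for the cytoplasmic ribosome only 3 passed the adjusted p, and the list median was -0.02.

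**Figure D4:**
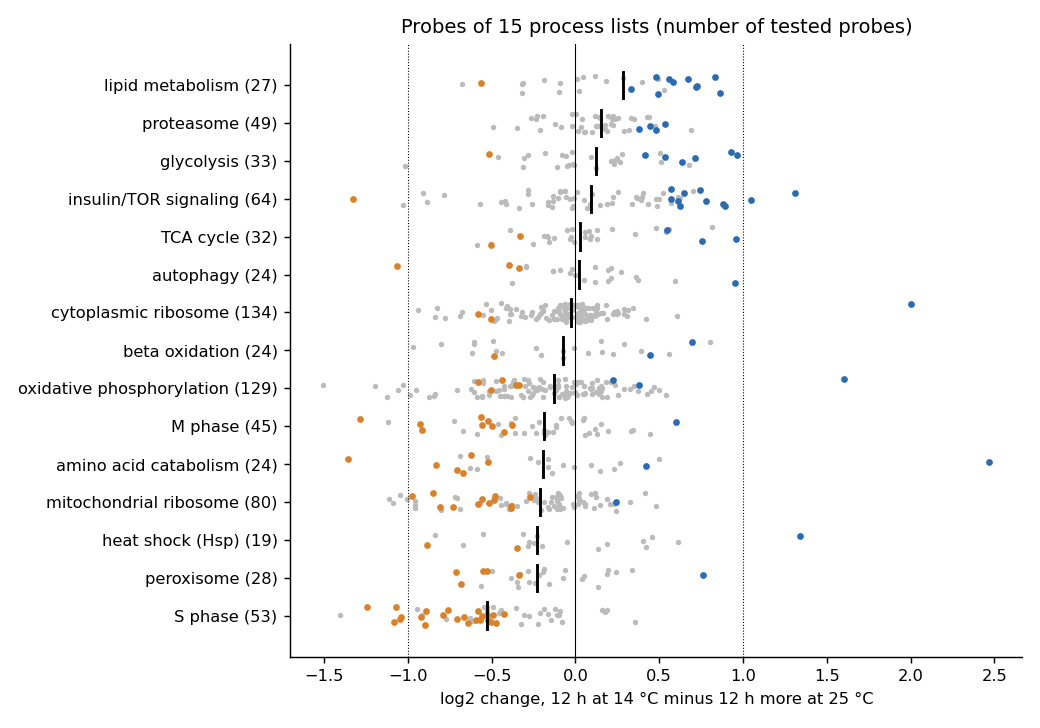
Log2 change of every tested probe (points) of the 15 process lists, with the number of probes in parentheses, and the list median (black bar). Blue and orange points passed an adjusted p of 0.05 upwards and downwards, grey ones did not, and dotted lines mark 2-fold changes. 23 of 53 S phase probes are orange and none is blue.

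The largest counts of higher probes were those of insulin/TOR signaling and lipid metabolism. For lipid metabolism 10 of 27 probes were higher by adjusted p (against 11.2% of all tested probes) and 1 was lower, with a median log2 change of 0.29 and no probe past the fold limit. Desat2, a fatty acid desaturase, was higher by 0.67 and 0.56 with its 2 probes, Acsf3, of the acyl-CoA synthetase family, by 0.72 and 0.83, and CG9743 by 0.73. The list means of the warm cultures were 9.80, 9.68 and 9.87 and those of the cold cultures 9.94, 10.03 and 10.03, with 0 h arrays between 9.71 and 9.86. Without warm replicate 2 the count was 8 of 27, against 6.67% of all tested probes, and without the 2 doubtful cold arrays 2 of 27, against 2.93%. The list median was 0.18 within slide 3 and 0.14 within slide 1, below the pooled value.

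For insulin/TOR signaling 11 of 64 probes were higher (17.2%, against 11.2% of all tested probes) and 1, for Lk6, was lower. Pdk1, the kinase that activates Akt downstream of the insulin receptor, was measured by 4 probes. The brightest gave 11.02, 10.43 and 11.08 in warm and 11.84, 12.42 and 12.19 in cold cultures (log2 change 1.31, SE 0.23, adjusted p = 0.00031), a second rose by 1.05 (SE 0.09, adjusted p = 1.77e-07), and the others had changes of 0.62 and 0.63, of which the former passed the adjusted p. The brightest probe had a 0 h mean of 11.29 ± 0.39 (SD, n = 3), from which the cold cultures differed by 0.86, under 2-fold, and it was not called without the 2 doubtful cold arrays (1.00, adjusted p = 0.0846). InR, the insulin receptor gene, was higher with 3 of 5 probes, by 0.65, 0.78 and 0.88, and had changes of 0.34 and -0.07 with the others, which did not pass. The share of higher probes was 6.25% without warm replicate 2 (all tested probes 6.67%), 1.56% without the 2 doubtful cold arrays (all 2.93%) and 28.1% with slide as a block (all 15.6%), so that it was above the background in some settings and not in others. The list median of 0.09 lay 0.07 above that of all tested probes, and 0.09 above it after median scaling.

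In the heat shock list 1 of 19 probes was higher (5.26%, against 11.2% of all tested probes) and 2 were lower (10.5%, against 8.29%). The median log2 change was -0.23. It was -0.25 within slide 3 and -0.31 within slide 1, and 12 of the 19 probes were lower on both slides, against 35.9% of all tested probes. With slide as a block 7 probes were lower (36.8%, against 17% of all tested probes) and 2 were higher. Hsp26, a small heat shock protein that binds unfolded proteins, gave 9.18, 8.99 and 10.43 in the warm cultures and 10.65, 10.84 and 11.12 in the cold cultures (log2 change 1.34, SE 0.38, adjusted p = 0.0159), and its change from the 0 h mean of 9.83 ± 0.45 (SD, n = 3) was 1.04 (adjusted p = 0.062). Hsp22 was lower by 0.89, and Hsp67Ba by 0.35 with 1 of its 2 probes. The list means of the groups overlapped, from 8.54 to 8.93 in warm and from 8.51 to 8.86 in cold cultures. Without warm replicate 2 no probe of the list passed the adjusted p (limma), the change of Hsp26 was 1.07 (adjusted p = 0.0931) and the list median was -0.37.

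For the proteasome and glycolysis lists the cold cultures stood with 0 h and the warm cultures lay below both. The proteasome list mean was 13.46, 13.44 and 13.48 in the warm cultures and 13.63, 13.61 and 13.55 in the cold cultures, but 13.63, 13.56 and 13.56 at 0 h. 4 of 49 proteasome probes were higher by adjusted p (8.16%, below the 11.2% of all tested probes) and none was lower. Among them Rpn8 and Rpt4, subunits of the regulatory particle, were higher by 0.48 and by 0.45 (1 of 2 Rpt4 probes). Glycolysis had 6 of 33 probes higher (18.2%, against 11.2% of all tested probes) and 1 lower. Its group means were 10.89 ± 0.03 in warm cultures, 11.02 ± 0.03 in cold cultures and 11.00 ± 0.03 at 0 h (SD, n = 3). The share of higher probes was 6.06% without warm replicate 2 (all tested probes 6.67%) and 3.03% after median scaling (all 3.79%). With slide as a block it was 27.3% (all 15.6%). Gpdh1, the glycerol-3-phosphate dehydrogenase, was higher by 0.96, 0.93 and 0.63 with 3 of 4 probes. Within slides 3 and 1 the medians were 0.21 and 0.0012 for the proteasome, against 0.15 over all arrays, and 0.03 and 0.08 for glycolysis, against 0.12. The other process lists (cytoplasmic ribosome aside) had between 1 and 6 probes lower and between 1 and 3 higher. Lower were 6 of 24 probes for amino acid catabolism (25%) and 5 of 28 for the peroxisome (17.9%), against 8.29% of all tested probes. For oxidative phosphorylation 5 of 129 were lower (3.88%). The median log2 changes of these lists were -0.19, -0.23 and -0.13, respectively. In amino acid catabolism the called genes went in both directions, with Tat higher and CG31075 lower.

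Genes of adhesion and the cytoskeleton contributed 3 called probes of 45, all higher (against 2.1% of all tested probes). mew, an integrin alpha subunit, gave 10.97, 10.73 and 11.25 in warm and 11.70, 12.17 and 12.15 in cold cultures (log2 change 1.02). Pax, the focal adhesion protein paxillin, rose by 1.05, and Zasp52, a scaffold of integrin sites and of muscle Z-discs, by 1.19. Without warm replicate 2 the changes were 0.90 for mew, 0.90 for Pax and 0.94 for Zasp52, each past the adjusted p but under 2-fold, and without the 2 doubtful cold arrays none of the 3 passed the adjusted p (0.304, 0.120 and 0.146). betaTub97EF, a beta-tubulin isotype, gave 11.85, 11.59 and 12.40 against 13.04, 13.13 and 13.25 (log2 change 1.19, SE 0.13, adjusted p = 3.11e-06). It was the only called probe of 13 for tubulins and microtubule proteins, against 2.1% of all tested probes called higher. It stayed called without warm replicate 2 (1.01, adjusted p = 1.43e-05). Its 0 h mean of 12.36 ± 0.02 (SD, n = 3) lay above the warm mean of 11.95, and its change from 0 h was 0.78, under 2-fold. Among the genes of the V-ATPase and of water or ion transport, 6 of 24 probes were higher by adjusted p (25%, against 11.2% of all tested probes) and none was lower. 2 of the 24 were called, against 2.1% of all tested probes called higher. Both were for NKAIN, a protein that interacts with the sodium pump. Neither NKAIN probe was called without warm replicate 2 (0.94 and 0.96). The other NKAIN probes had changes of 0.74, 0.76 and 0.39, under the fold limit, and the last did not pass the adjusted p. Stress and JNK signalling had 4 called probes of 26 (against 2.93% of all tested probes), and these were the probes of Pvf3 and lncRNA:Hsromega already given. By adjusted p, 6 probes of that list were higher (23.1%, against 11.2% of all tested probes), and these include the 4 of Pvf3 and lncRNA:Hsromega. Without warm replicate 2 only those 4 of 26 were higher, against 6.67% of all tested probes. In the same list 1 probe, for regucalcin, was lower, by 0.76 (adjusted p = 0.00568).

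Probes of 1 gene were often not all called. Some of those not called fell just short of the fold limit, such as 0.85 beside 1.02 for BomBc2. The genes counted here were picked for having a called probe. The called probes that carry a symbol belong to 65 genes, 44 with a rise and 21 with a fall. 23 of the 65 have more than 1 tested probe, and in 21 of those at least 1 probe was not called, in 3 of them with the opposite sign. The widest gap among the named genes was that of RpLP1, a protein of the ribosomal stalk. One of its probes gave 7.73, 7.58 and 7.45 in warm and 9.99, 9.61 and 9.18 in cold cultures (log2 change 2.002, SE 0.22, adjusted p = 2.54e-06). The other, which matches another transcript of the gene, had a mean of 16.7 in both groups and a log2 change of 0.02. ND-B16.6, a subunit of respiratory complex I, showed the same order, with a rise of 1.605 for a probe with a warm mean of 8.37 and changes of 0.21 and 0.43 for probes at 13.8 and 12.6. Fur1, a furin-like protease, rose by 1.18 with one probe and had changes of -0.47 and -0.01 with 2 others. For RpLP1 and ND-B16.6 the called probe was the dimmest, and for Fur1 it was the brightest. The difference between probes was not tested.

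The warm cultures were also set against those at 0 h. None of the 15503 probes was called between the warm cultures and those at 0 h by limma, and none passed the adjusted p alone, with 385 at an unadjusted p under 0.05. Set against 0 h, the cold cultures had 278 probes called higher and 110 lower (2.5% of those tested). Along the cold series, 24 probes (0.155%) were called between 4 h and 12 h and 4 (0.0258%) between 12 h and 24 h. Leaving out 12 h replicate 2 changed the first of these counts to 14, and leaving out any 1 of the 3 arrays at 12 h, or 24 h replicate 2, changed the second to 1 or 2.

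The S phase list mean was 10.38 ± 0.05 (SD, n = 5) after 4 h, 9.98 ± 0.05 (SD, n = 3) after 12 h, 9.69 ± 0.11 (SD, n = 5) after 24 h and 9.68 ± 0.04 (SD, n = 4) after 72 h. At 12 h it thus stood between the levels of 4 h and of 24 h, whose arrays do not overlap with it, whereas those of 24 h and 72 h overlapped. Lipid metabolism had reached 9.97 ± 0.08 (SD, n = 5) after 4 h and stood at 10.00 ± 0.05 (SD, n = 3) after 12 h, a difference within the spread. Tat likewise had most of its rise by 4 h (8.38 ± 0.14, SD, n = 5) and was at a mean of 7.34 by 72 h, above its 6.26 at 0 h, whereas Kah went on from 8.69 at 4 h and 8.87 at 12 h to 10.4 at 72 h.

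**Figure D5:**
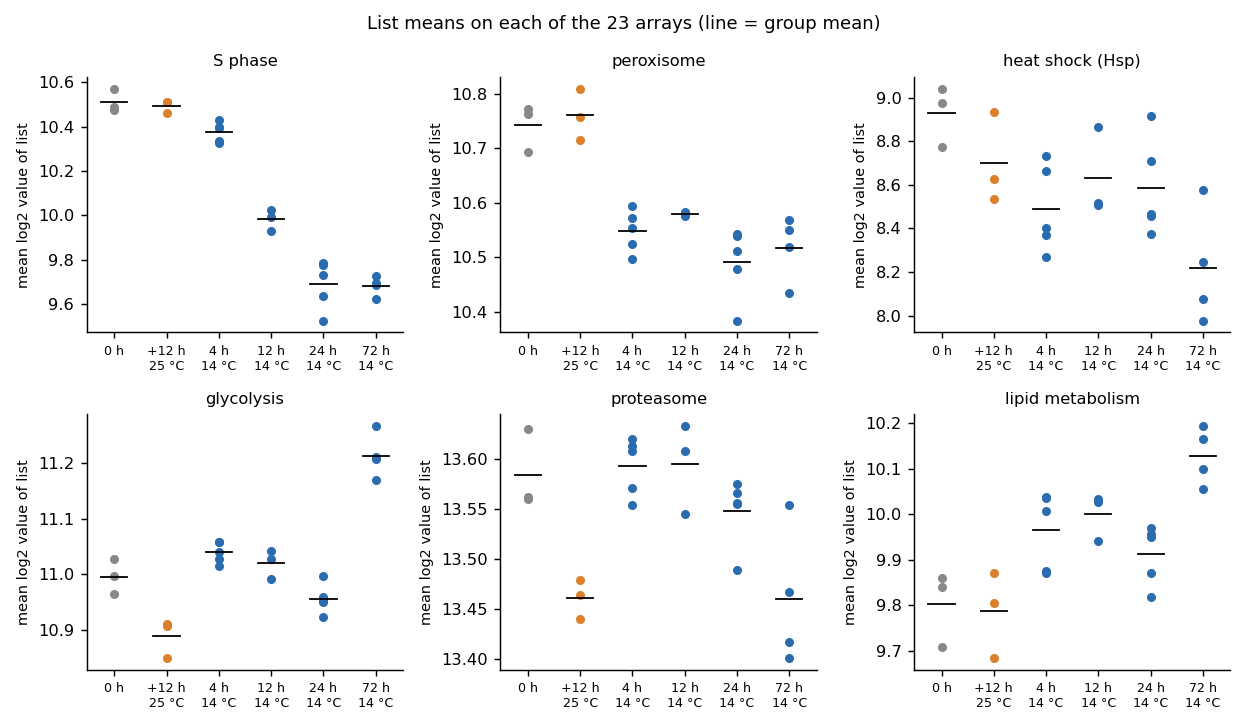
Mean log2 value of the probes of a list on each of the 23 arrays (points) with the group mean (line), for the 3 process lists with the lowest and the 3 with the highest median change at 12 h. Each panel has its own y axis. The S phase list falls to 24 h, and for glycolysis all 3 arrays of the warm control lie below every other array.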

How the data were processed

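Cy3-labelled cRNA from S2R+ cultures was hybridized to single-color Agilent 4x44K (V2) Drosophila arrays. The deposited files hold scanner intensity values per spot from Agilent Feature Extraction 10.7.3.1, per the file headers, with flags for outlying, saturated and well-above-background spots. The authors' value table gives log2 values after normexp correction, quantile normalization and removal of surrogate variables, and was used as an alternative. Here, the median spot signal was corrected by normexp (offset 50, with local backgrounds above 3 times the array median set to that median), quantile-normalized over gene spots of all 23 arrays and converted to log2. Spots flagged as outliers were left out and the median over spots of a probe was taken. Probes above log2 6.6 on at least 3 of the 23 arrays were tested (15503 of 32162). A near-background spot has a value near log2 6, which compresses the change of dim probes. A probe not well above background on any array of a group has its ratio given as a lower limit, against the higher of its own value and the lowest value of a probe well above background on each array.

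Group means of all 23 arrays were fitted with limma 3.58.1 in R 4.3.3 (lmFit and eBayes) and p-values were adjusted by Benjamini-Hochberg over all tested probes. A probe was called at an adjusted p under 0.05 and a change of at least 2-fold. All tests were two-sided. The 14 named genes of each direction were the probes with 1 symbol, called, not overlapping between the groups and with the largest change. Of list members, those called and up to 4 with the lowest adjusted p are named. The comparison, the lists and the genes were chosen with earlier results of these data known. The process lists are the study's curated lists, and the other lists were composed for this work. Symbols came from the study's probe tables, from transcripts shared with them and from RefSeq accessions (release 6 annotation), which name 3805 probes.

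The number of arrays limits the precision. The steps were tested on simulated data. Replicate numbers were checked for pairing. Deviations from the group mean of same-numbered arrays correlated at 0.58, 0.88 and 0.65 between the 0 h and the warm cultures. Replicates 1 of both groups shared slide 3 and replicates 3 shared slide 1, whereas replicates 2 shared none. An unlike-numbered pair (0 h replicate 3 with warm replicate 1) reached 0.50, so these values do not settle whether the cultures were paired. The fit with the replicate number as a block also called 0 probes between the 0 h and the warm cultures. Alternatives covered background correction, normalization, filters, array sets, blocks for slide, scan date and replicate, array weights, the reference group and single arrays. The genome build in the file headers (dm3) differs from that of the gene tables, so no coordinates are given.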

Additional observations from a re-analysis of the deposited data

Results flagged for a closer look

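Of the 28 named genes, 16 differed between 12 h and 4 h at 14 °C by adjusted p (limma), against 3.41% of all tested probes. These genes were chosen for their change at 12 h and the same 12 h arrays enter this difference, so the count is a description. The log2 difference, 12 h minus 4 h, was 0.39 for Tat (adjusted p = 0.0319), 1.17 for Pvf3 (0.0143), 1.02 for RpLP1 (0.0061), 0.77 for CG33642 (0.0212), 1.18 for Svil (4.7e-05), 1.07 for Hk (0.0052), 0.63 for mim (0.0383) and 0.68 for nompB (0.0158). It was -0.83 for CG31075 (0.00158), -1.09 for zuc (0.00385), -0.44 for Mis12 (0.00447), -0.40 for Tsf3 (0.0379), -0.48 for PolG1 (0.0405), -0.65 for Sry-delta (6.58e-05), -0.93 for Prim1 (0.000625) and -0.55 for Atg4a (0.0209). Between 24 h and 12 h, the difference was -0.89 for CG31075 (0.00398) and -0.75 for Prim1 (0.0132).

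A single array stood apart in 11 of the 168 groups of 4 or 5 arrays examined for the named genes and lists, and chance alone sets apart about 1 in 20. CG31075 was 11.8 on 4 h replicate 4 (11.5 to 11.6 on the others) and 10.1 on 24 h replicate 5 (9.75 to 9.84). Hk was 8.20 on 24 h replicate 2 (8.65 to 8.84), and Prim1 was 8.43 on 24 h replicate 4 (9.03 to 9.24). asRNA:CR43465 was 7.52 on 72 h replicate 3 (7.08 to 7.14), and Sry-delta was 10.045 on 72 h replicate 4 (10.2 on the others). List means stood apart for amino acid catabolism (10.1 against 9.97 to 10.00, 4 h replicate 4), cytochromes P450 (7.93 against 8.03 to 8.04, 4 h replicate 5), glutathione transferases (10.6 against 10.5, 24 h replicate 2), the proteasome (13.5 against 13.6, 24 h replicate 5) and stress and JNK signalling (9.41 against 9.15 to 9.20, 24 h replicate 4).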

How the results depend on the processing

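Numbers of called probes depended on background and scaling. 295 probes were called (219 higher, 76 lower) with local backgrounds as deposited, 864 (572 and 292) with a normexp offset of 0, 1366 (1043 and 323) after scaling the processed signal to its 75th percentile, 488 (159 and 329) after median scaling and 525 (299 and 226) with the deposited table. These last 4 settings called 31, 35, 23 and 26 probes of the process lists, against 15. 1687 probes passed with a 1.5-fold limit (1051 and 636) and 3017 with none (1732 and 1285). With both cold arrays outside the quality range left out 292 were called (210 and 82), a choice made after seeing the data. The cause was not tested. Leaving out 1 array gave 352 to 660 called probes (224 to 456 higher, 107 to 204 lower, the highest 3 without warm replicate 3), 13 to 26 list probes and 24 to 28 of the 28 named genes. For the other comparisons, the ranges were 0 to 2 (warm against 0 h), 336 to 439 (12 h against 0 h), 14 to 33 (12 h against 4 h) and 1 to 5 probes (24 h against 12 h). Slide as a block called 370 probes, 64.6% of them higher against 71.6%. Scan date as a block called 390 probes (67.2% higher), 362 of them among the 455.

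Same-numbered cold and warm arrays did not all deviate together (r of -0.32, -0.26 and 0.59 for numbers 1, 2 and 3). Numbers 1 and 3 each shared a slide, and not every array correlated best with its own number. With the replicate block over all 23 arrays 490 probes were called, with the block in the 6 arrays alone 365, and 10 between 24 h and 12 h. Of the 28 named genes, Ctf4 was called in 13 of 26 alternatives, Lk6 in 16, PolA2 in 18 and Mcm3 in 24, and the other 24 genes in at least 25.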

Other observations

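Some other called genes with a symbol are given here, chosen after their values were seen. Dad, the inhibitory Smad of the BMP pathway, rose by 1.20 and 1.15 with both of its probes, unc-5, a receptor for netrin, by 1.35 and 1.18 with 2 of 3 probes, and rl, the ERK kinase, by 1.29 with 1 of 2. Sting, which acts in antiviral defence, gave 13.67 ± 0.03 in warm and 14.74 ± 0.06 in cold cultures (SD, n = 3), and BomBc2, a peptide of the Toll response, rose by 1.02 with 1 of 2 probes. Without warm replicate 2, the second probes of Dad and of unc-5 were under 2-fold (0.97 and 0.92). Lower were gfzf, which carries a glutathione transferase domain (-1.02 with 1 of 2 probes), and Cyp4d20, a cytochrome P450 (-1.01). The cytochrome P450 list, without Cyp4d20, had 5 of 14 probes higher by adjusted p (35.7%, against 11.2% of all tested probes) and 2 lower. Without warm replicate 2 none of the 14 was higher and 3 were lower. The immune response list, without Sting and BomBc2, had 2 of 11 probes higher and 2 lower (18.2% each, against 11.2% and 8.29%).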
